A study of Mus musculus with 4 samples.

Results

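Killer lectin-like receptors are C-type lectin-like membrane proteins of natural killer (NK) cells and of some T cells. They are encoded on mouse chromosome 6, many of them in the NK gene complex. The receptors described here are 10 genes of that family, Klrb1c, Klrb1f, Klrc1, Klrc2, Klrd1, Klrk1, Klre1, Klrg1, Klra7 and Klra8. Every probe for one of these genes was taken from 4 one-colour microarrays of cultured Th cells, whatever its signal. Of the 10 genes, 9 had a probe, with 11 probes in all, among 18749 genes named on the array. No probe was matched to Klrc2.

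The cells were naive CD4 T cells (CD44low CD62Lhigh CD25negative) from the spleens of C57BL/6J mice that the labels call female. Wild-type (WT) cells and cells labelled Bach2 KO were compared, the KO cells coming from mice with floxed Bach2 alleles and a CD4-Cre transgene, which the CD4 promoter drives in T cells and in the thymic precursors of CD4 and CD8 T cells alike. The study's text describes its WT controls as CD4-Cre mice, and its methods say that in vitro experiments took both sexes. All cells had been activated for 2 days on 3 μg/ml of immobilized anti-TCR-β mAb plus 1 μg/ml of anti-CD28 mAb under IL-2 conditions (2.5 ng/ml) and kept for a further 3 days with IL-2. For each genotype 1 array was made before and 1 after a further 4 h on immobilized anti-TCR-β mAb without IL-2, and no antibody against IL-4 is named in the labels. With 1 array for each of the 4 conditions, no difference below has a replicate check, and no test was made.

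The receptors of this family fall into inhibitory and activating kinds. Inhibitory members such as KLRG1, NKG2A (Klrc1) and Ly49G2 (Klra7) carry tyrosine motifs that recruit phosphatases, whereas activating members such as NK1.1 (Klrb1c), NKG2C (Klrc2), NKG2D (Klrk1) and Ly49H (Klra8) signal through adaptors, among them DAP12, DAP10 and the Fc receptor γ chain. CD94 (Klrd1) is the shared partner chain of NKG2A and NKG2C, and NKG2A-CD94 binds the non-classical MHC molecule Qa-1. Among T cells, KLRG1 is known from effector cells that have divided often, and NK1.1 in this mouse strain is the usual surface marker of NK and NKT cells.

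In the gene order of the RefSeq annotation the 10 genes stood as Klrg1, Klrb1c, Klrb1f, Klre1, Klrd1, Klrk1, Klrc2, Klrc1, Klra8 and Klra7. The promoters of Klrb1c and Klrb1f are shown because these NKR-P1 genes, next to each other in that order, responded in opposite directions to re-stimulation of WT cells, and that of Klrk1 because it holds both motifs searched. Each runs from 250 bases before to 50 bases after the start, 5′ to 3′ on the strand of the gene, taken from RefSeq with the build GRCm38.p6. The Klrb1c window is chr6:128788592-128788891 on the minus strand, the Klrb1f window chr6:129045651-129045950 on the plus strand, and the Klrk1 window chr6:129623815-129624114 on the minus strand. Capitals mark the letters TGACTCA, the core bound by AP-1 family dimers such as those of Batf, and TGTGGT, a core bound by Runx factors, each searched on both strands.
Klrb1c: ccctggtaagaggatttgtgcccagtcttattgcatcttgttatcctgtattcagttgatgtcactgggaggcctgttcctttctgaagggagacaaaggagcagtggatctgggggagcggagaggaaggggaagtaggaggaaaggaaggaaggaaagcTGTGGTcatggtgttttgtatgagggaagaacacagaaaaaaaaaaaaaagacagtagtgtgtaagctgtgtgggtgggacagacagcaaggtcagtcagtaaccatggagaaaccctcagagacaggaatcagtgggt
Klrb1f: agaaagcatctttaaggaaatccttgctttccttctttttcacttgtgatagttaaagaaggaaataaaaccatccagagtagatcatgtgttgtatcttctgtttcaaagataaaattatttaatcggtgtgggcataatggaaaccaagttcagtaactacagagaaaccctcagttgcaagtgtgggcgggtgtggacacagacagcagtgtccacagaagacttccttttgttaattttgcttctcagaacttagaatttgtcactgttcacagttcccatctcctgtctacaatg
Klrk1: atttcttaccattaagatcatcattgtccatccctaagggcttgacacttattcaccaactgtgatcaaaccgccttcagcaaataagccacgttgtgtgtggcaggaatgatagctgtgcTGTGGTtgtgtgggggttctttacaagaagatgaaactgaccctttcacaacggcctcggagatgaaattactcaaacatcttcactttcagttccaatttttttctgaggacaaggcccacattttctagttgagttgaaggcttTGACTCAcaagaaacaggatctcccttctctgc
The promoter table held 8 of the 10 genes, with 12 start sites, and not Klrg1 or Klrd1. The AP-1 letters stood in 3 of these 12 promoters, those of Klrc2 and Klrk1 (2 of 8 genes), and in 5.2% of all 32851 promoters. The Runx letters stood in 6 of the 12, belonging to Klrb1c, Klrc1, Klrc2, Klrk1 and Klre1 (5 of 8 genes), and in 16.8% of all promoters. The 2 Klrc2 windows overlap and hold the same matches, so each of these was counted in both windows. In Klrk1 the Runx letters began 129 bases before the start and the AP-1 letters 17 bases after it, while the Klrb1f window held neither. A match of letters is a description of the sequence and was not tested as a binding site.

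Between 53.6% and 54.0% of the 41173 probes were well above background on an array by the scanner software's flag, and the lowest signal so flagged was between 14.5 and 17.2 (arbitrary units of the scanner). The probe for Bach2 read 2932 on the WT and 2633 on the KO array of resting cells and 3310 and 3080 on those of re-stimulated cells, so the genotype labels could not be checked by it. Whether this probe lies in the deleted part was not tested. The genotypes are therefore named as labelled. Of 4 Y-linked genes with a probe, 3 passed the detection flag on both KO arrays and on neither WT array, for example Ddx3y at 428 and 434, although the labels call all mice female. Sex and genotype thus cannot be told apart in any difference between the genotypes below. Each of the 8 CD4 T cell markers checked, Cd4 and Cd3e among them, was well above background on all 4 arrays.

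Differences are given as log2 values after each array was scaled to its own 75th percentile. Where 1 of a pair of arrays was not well above background, a value below the lowest value so flagged on that array was raised to it. The difference is then a bound. An unflagged value that already lay above that lowest value was left as it was. Where neither array was well above background, no difference is given. The only spread that could be measured was that between different probes of 1 gene, with a median SD of 0.09 to 0.15 log2 over 3852 genes. It leaves out the variation between mice, cultures and hybridizations.

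Klrg1 differed most between the genotypes. KLRG1 is an inhibitory receptor that binds cadherins, E-cadherin among them. In resting cells its signal was 17.0 in WT and 198 in KO, and after 4 h of re-stimulation 19.0 in WT and 234 in KO. Both KO arrays were thus high and both WT arrays were close to the lowest signals called well above background, which were 15.1 and 14.5 on those arrays. The KO array was 11.7-fold higher before re-stimulation (log2 difference 3.54) and 10.9-fold higher after it (3.45). With normexp background correction (offset 50) followed by quantile normalization, these log2 differences were 1.63 and 1.96. Such a difference in bulk RNA cannot tell more Klrg1-positive cells from more Klrg1 RNA per cell.

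**Figure D1:**
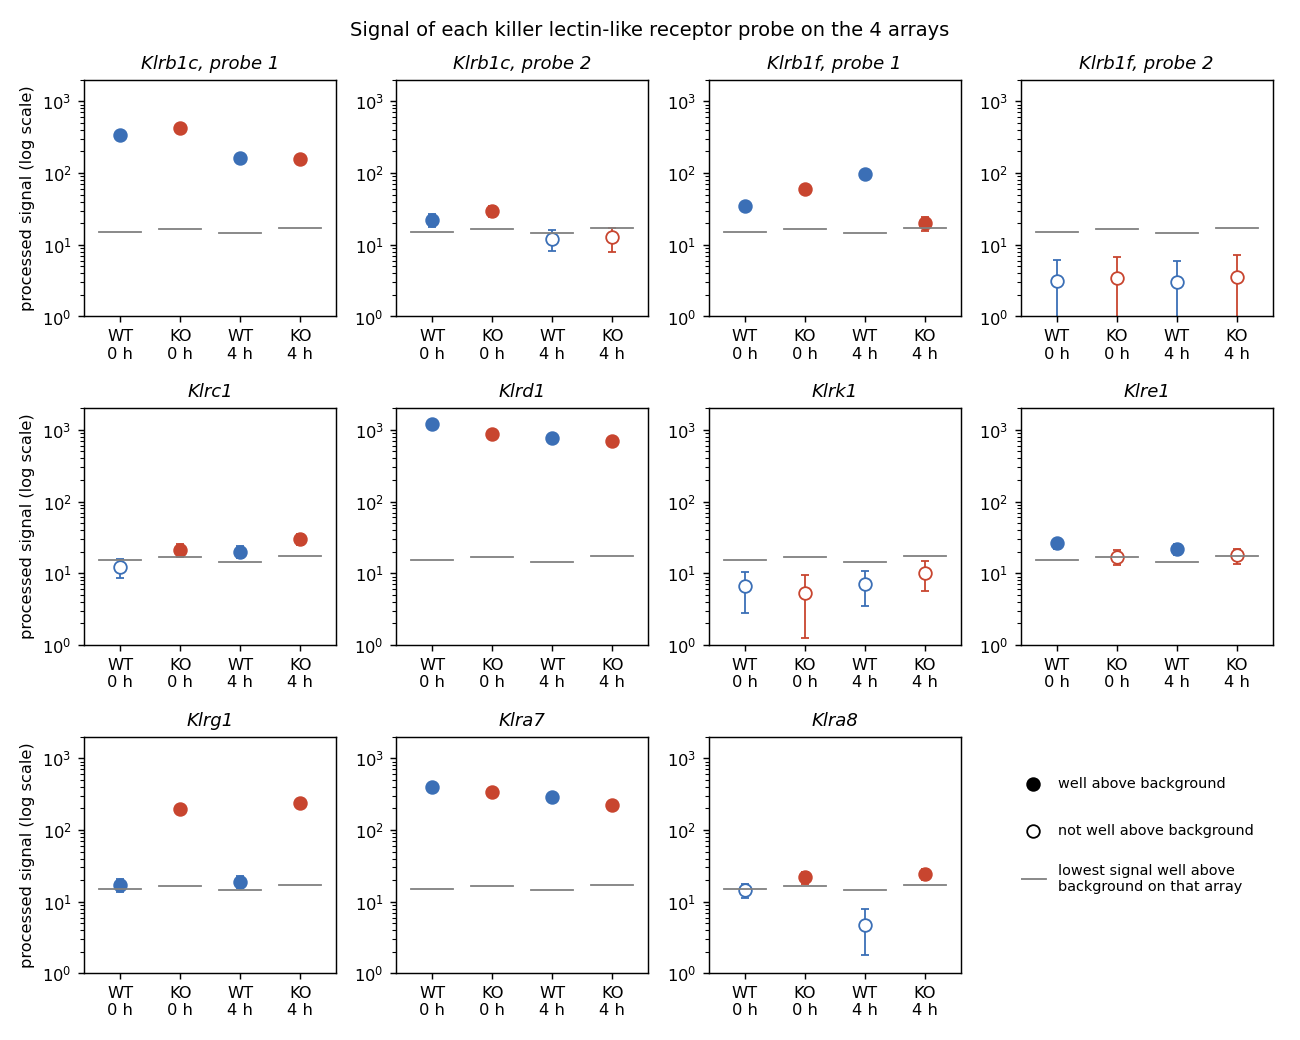
Processed signal (log scale, arbitrary scanner units) of each of the 11 probes on the WT (blue) and KO (red) arrays before (0 h) and after (4 h) re-stimulation. Points are single arrays, error bars are the scanner software's own error of the spot, which is no replicate error and is not drawn below the axis limit of 1, and levels of different probes are not to be compared. Klrg1 stood at 198 and 234 on the KO arrays against 17.0 and 19.0 on the WT arrays, and the first Klrb1f probe reached 98.5 on the re-stimulated WT array and 20.0 on the re-stimulated KO array.

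Klrb1f showed the opposite direction before and after re-stimulation. It encodes NKR-P1F, an NKR-P1 receptor that binds lectin-like ligands of the Clr family. Before re-stimulation its first probe gave 34.9 in WT cells and 59.9 in KO cells. After 4 h it gave 98.5 in WT cells and 20.0 in KO cells, the highest and the lowest of its 4 values. The KO array was thus 1.72-fold higher before re-stimulation (0.79) and 5.54-fold lower after it (-2.47), a change of -3.26 in the difference. The response itself was 3.93-fold upward in WT cells (1.98) and 2.43-fold downward in KO cells (-1.28). The second Klrb1f probe stayed below that flag on all 4 arrays, with signals between 3.01 and 3.59, so the pattern rests on 1 dim probe. With normexp followed by quantile normalization the genotype difference was 0.13 before and -1.10 after re-stimulation and the responses were 0.79 in WT and -0.44 in KO cells, both under 2-fold. As a mean over both probes the genotype difference was 0.46 and -1.19, and the response in KO cells was -0.45.

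Klrb1c, which encodes the activating receptor NK1.1, varied mainly with re-stimulation. Its first probe gave 337 in WT and 420 in KO cells before re-stimulation and 161 and 158 after it. Both signals before re-stimulation were higher than both after it. The response was -0.58 in WT cells and -1.11 in KO cells, and the genotypes differed by 0.32 before and -0.21 after. The KO response, 2.16-fold downward, was under 2-fold (-0.86) when scaled to Cd3e and also with normexp followed by quantile normalization. The second Klrb1c probe gave 22.2 and 29.3 before re-stimulation and was not well above background after it, at 12.2 and 12.6. Between the genotypes this probe could be compared only before re-stimulation, where the KO array was higher by 0.40. Its responses were downward bounds of -0.13 (at least 1.10-fold) in WT and -0.46 (at least 1.38-fold) in KO cells.

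Klrd1, Klrc1, Klre1 and Klrk1 differed in whether they were detected at all. The Klrd1 probe gave 1201 in resting WT cells and 874 in resting KO cells, and 769 and 693 in re-stimulated cells. The KO arrays were lower by a log2 value of -0.45 before and -0.32 after re-stimulation, and the responses were -0.16 in WT and -0.03 in KO cells. Klrc1, the inhibitory NKG2A chain, was dim, with 12.2 in WT cells before re-stimulation, not well above background, and 21.2 in KO cells. After re-stimulation it gave 19.9 in WT cells and 29.9 in KO cells, both well above background. The KO array was at least 1.41-fold higher before (0.50) and 1.33-fold higher after re-stimulation (0.41), and the response was at least 0.88 in WT cells, a bound, and 0.80 in KO cells. CD94 was thus read from a probe well above background everywhere, whereas its inhibitory partner was so on 3 of 4 arrays and its activating partner NKG2C had no probe. Klre1, a receptor chain that pairs with the Klri proteins, was well above background only on the WT arrays, at 26.1 before and 21.9 after re-stimulation. On the KO arrays it gave 16.9 and 17.8, so that WT was 1.53-fold and 1.39-fold higher. These KO values were unflagged but lay above the lowest flagged signals of their arrays, 16.8 and 17.2, so neither was raised. Klrk1, which encodes NKG2D, passed the flag on none of the 4 arrays, with signals of 6.57 and 5.34 before and 7.11 and 10.2 after re-stimulation in WT and KO cells.

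Neither Ly49 gene gave a measured difference or a bound past 2-fold. Ly49G2, encoded by Klra7, is an inhibitory receptor for classical MHC class I. Its probe gave 401 in WT and 333 in KO cells before re-stimulation and 284 and 224 after it, so that KO was lower by a log2 value of -0.26 and of -0.52. Klra8, encoding the activating Ly49H, was well above background only on the KO arrays, at 21.8 before and 24.1 after re-stimulation, with 14.5 and 4.80 on the WT arrays. The bounds were at least 1.45-fold and at least 1.47-fold higher in KO. The Ly49 genes are close copies of each other and the probe sequences were not used here, so reads of 1 Ly49 gene by the probe of another were not tested. Such reads were not tested between the NKG2 genes either, Klrc1 among them.

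Read together, 5 of the 9 genes with a probe were well above background on all 4 arrays, 3 on some and 1 on none. Before re-stimulation 8 of them could be compared, of which Klrg1 was at least 2-fold higher in KO and none at least 2-fold lower, where 5.26% of 12136 genes were so higher and 2.82% lower. After re-stimulation Klrg1 was higher and Klrb1f lower past 2-fold among 8 compared, against 5.17% of 12348 genes higher and 3.85% lower. The median log2 difference of the members compared, bounds included, was 0.41 before and -0.26 after re-stimulation, beside -0.004 and 0.02 over all genes compared, with 5 of 8 above 0 before and 3 of 8 after it. Over the alternatives these medians ranged from 0.10 to 0.55 and from -0.29 to -0.11. In the response of WT cells 1 of 7 members compared, Klrb1f, was at least 2-fold up and none down, against 13.2% of genes up and 13.5% down. In that of KO cells none of 7 was up and 2, Klrb1c and Klrb1f, were down, against 12.4% up and 13% down. With normexp followed by quantile normalization, 0 were up in WT and 0 down in KO cells. The KO count was 1 when scaled to Cd3e or as a mean over probes, and 0 at 3-fold. Each of these counts rests on 1 or 2 genes. The comparisons share arrays in pairs and are not independent of each other.

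**Figure D2:**
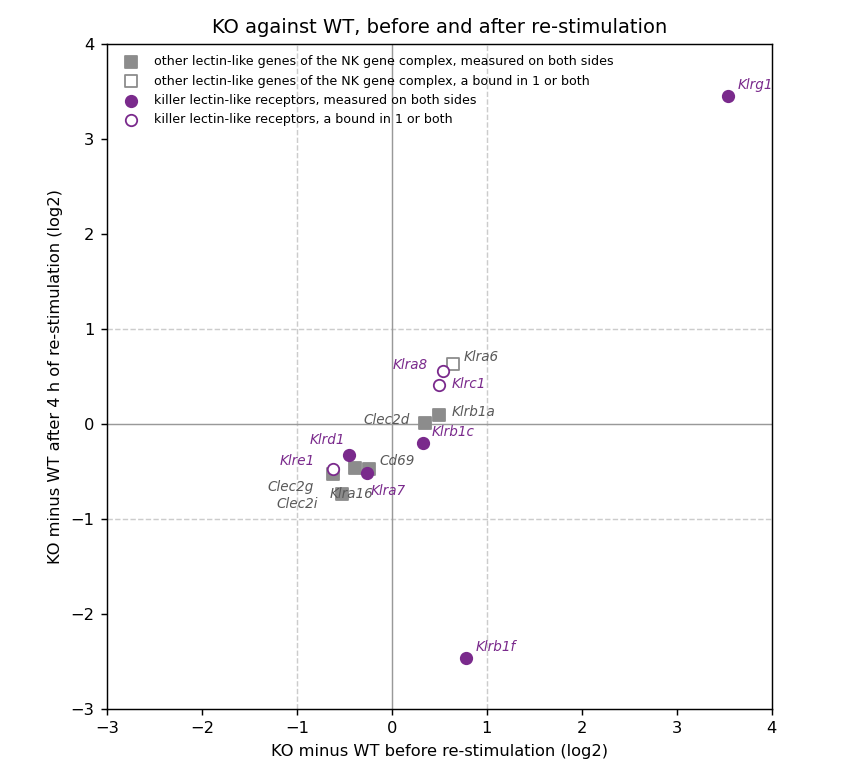
Difference between KO and WT arrays (log2) before re-stimulation on the horizontal axis and after 4 h on the vertical axis, for the receptors (circles) and the other lectin-like genes of the NK gene complex (squares) that could be compared at both times, 1 array per condition and no error bars. Open symbols are bounds, or for Klre1 differences with an unflagged KO side that was not raised, and dashed lines mark 2-fold. Klrg1 stood at 3.54 and 3.45, Klrb1f at 0.79 and -2.47, and every other gene plotted lay within 2-fold at both times.

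The rest of the NK gene complex gave the setting of these values. Of its other lectin-like genes 20 had a probe, of which 9 passed the detection flag nowhere. Among 10 that were compared before re-stimulation, 1 was at least 2-fold higher in KO and 0 were lower. For 2 of these 10, Klrc3 and Klrg2, no difference was given, as the flagged WT value did not exceed the KO side. After re-stimulation 0 of 10 were past 2-fold in either direction. The shares over all genes were 5.26% higher and 2.82% lower before, and 5.17% and 3.85% after re-stimulation. In the response 3 of 8 were at least 2-fold up and 0 down in WT cells, and 3 of 11 were up and 1 was down in KO cells. Of all genes compared, 13.2% were up and 13.5% down in WT cells, and 12.4% and 13% in KO cells. The lectin-like genes up were Cd69, Klrg2 (1.86 in WT and at least 2.08 in KO) and Klrc3 (1.10 and 1.65), of which Klrg2 and Klrc3 were dim. The 1 gene higher in resting KO cells was Klra10, at 42.5 on the KO array before re-stimulation and between 5.94 and 7.79, not well above background, on the other 3 arrays. Klra6 followed the pattern of Klra8, with 23.5 and 25.3 on the KO arrays and 13.0 and 9.99, below the flag, on the WT arrays. Clec2g and Clec2i, lectin-like genes that lie next to the NKR-P1 genes, were lower in KO by log2 values of -0.62 and -0.53 before and -0.53 and -0.74 after re-stimulation. Klrb1a and Klra16 were looked at after their values were seen. The response of Klrb1a was -0.53 in WT and -0.93 in KO cells, beside -0.58 and -1.11 for Klrb1c, and Klra16 differed between the genotypes by -0.39 and -0.46, beside -0.26 and -0.52 for Klra7.

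**Figure D3:**
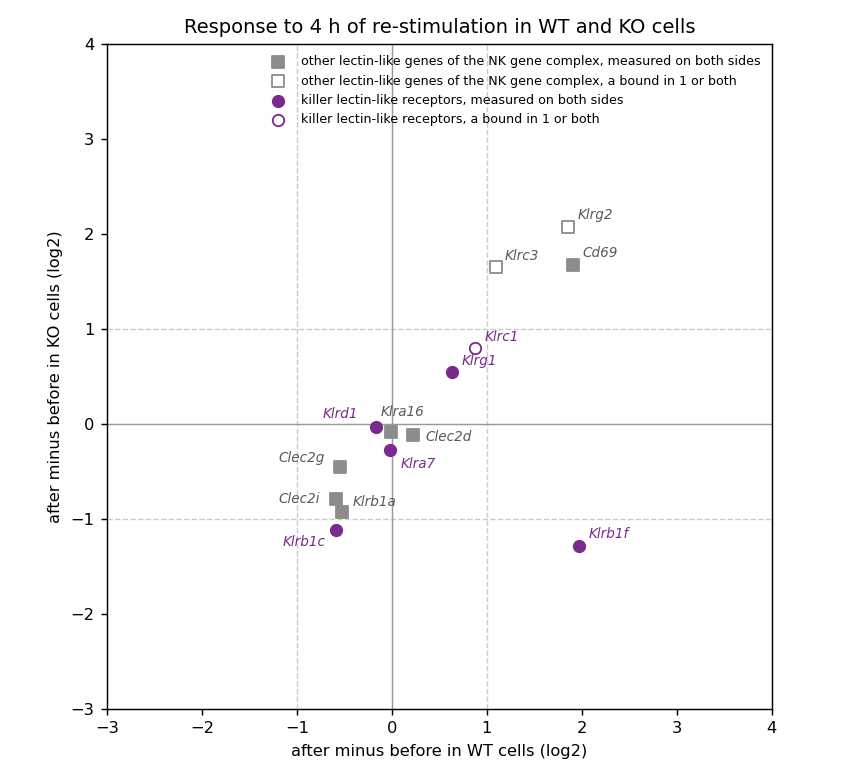
Response to 4 h of re-stimulation (after minus before, log2) in WT cells on the horizontal and in KO cells on the vertical axis for the receptors (circles) and the other lectin-like genes of the complex (squares), from single arrays without error bars. Open symbols are bounds, or for Klrc3 a KO response with an unflagged side that was not raised, and dashed lines mark 2-fold. Klrb1f, at 1.98 in WT and -1.28 in KO, stood apart in the lower right corner, and the activation marker Cd69 rose in both, by 1.91 and 1.68.

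The genes whose pattern over the 4 arrays was most like that of a receptor were taken from 4119 genes well above background on all arrays with a range of at least 1 log2, by the distance between mean-centred log2 profiles. For Klrg1 they were Ctsg (0.43), Itgae (0.46) and Gcnt1 (0.50), which encode cathepsin G, the integrin αE chain and a glycan-branching transferase. For Klrb1f they were H1f1 (0.49), Ncoa7 (0.83) and H2ac8 (0.84), of which H1f1 and H2ac8 are histone genes. For Klrb1c they were Prr13 (0.07), Mxi1 (0.09) and Zfp710 (0.09). For Klrd1 and Klra7 none is named, because their own ranges of 0.49 and 0.53 log2 were below the range asked of the candidates. Each profile has only 4 values, and such distances describe these arrays alone.

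Among the adaptors of the activating receptors, the genes of DAP12 and of the γ chain were higher in KO at both times. Tyrobp, which encodes DAP12, gave 208 in WT and 785 in KO cells before re-stimulation and 187 and 772 after it. It was 3.78-fold and 3.67-fold higher in KO. Fcer1g, the Fc receptor γ chain used by NK1.1, gave 758 and 2333 before and 806 and 2366 after, with log2 differences of 1.63 and 1.38. Hcst, which encodes the NKG2D adaptor DAP10 and was named after its values were seen, differed by 0.01 and 0.02. Syk, the kinase that DAP12 and the γ chain recruit, was lower in KO, at 643 against 146 before and 207 against 52.9 after re-stimulation. Lat2, a membrane scaffold related to LAT, was higher in KO by 1.68 and 2.16. Over the 20 adaptor and signalling genes listed, 5 were at least 2-fold higher and 2 lower before re-stimulation, and 6 higher and 2 lower after it, with medians of 0.09 and 0.29. Of all genes compared, 5.26% were so higher and 2.82% lower before re-stimulation, and 5.17% and 3.85% after it.

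**Figure D4:**
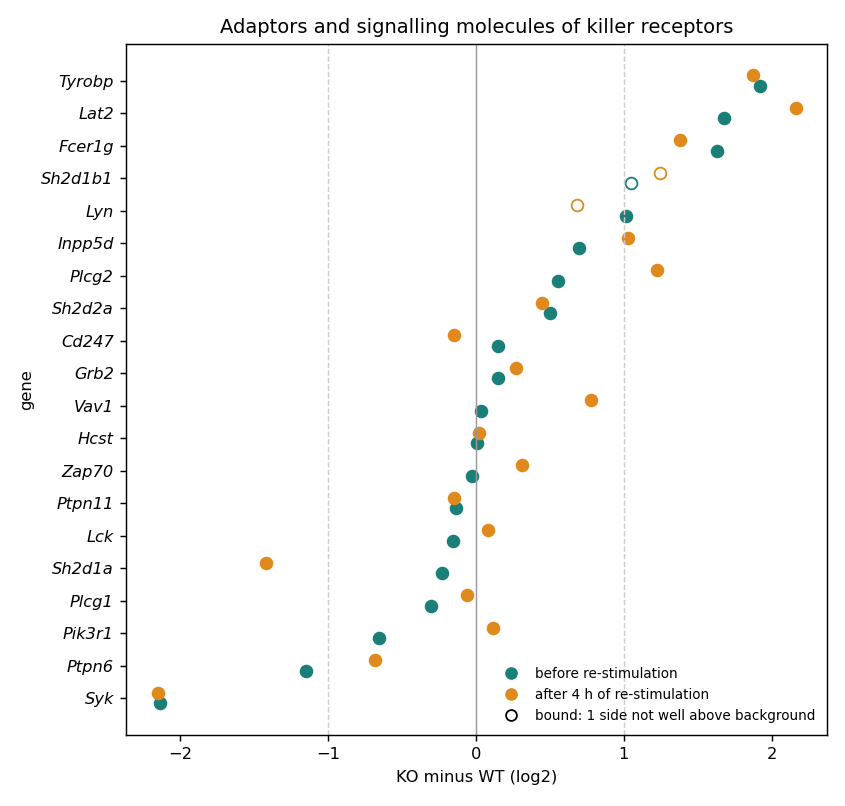
Difference between KO and WT arrays (log2) for 20 adaptors and signalling molecules of killer receptors, before (teal) and after (orange) re-stimulation, from single arrays without error bars, with open symbols for bounds and dashed lines at 2-fold. Tyrobp, Lat2 and Fcer1g were higher and Syk lower in KO at both times, while Hcst lay at 0.01 and 0.02.

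The ligands of these receptors were read in the same cells. Cdh1, which encodes the KLRG1 ligand E-cadherin, gave 141 in WT and 89.0 in KO cells before re-stimulation and 183 and 56.1 after it, so it was lower in KO by -0.66 and -1.88. Clec2i, which encodes the NKR-P1F ligand Clr-g, gave 890 in WT and 614 in KO cells before re-stimulation and 425 and 288 after it. Of 11 such ligands and antigen presentation genes compared, none was past 2-fold before re-stimulation, and Cdh1 alone was past it, downward, after re-stimulation. Over all genes compared, 5.26% were at least 2-fold higher and 2.82% lower before re-stimulation, and 5.17% and 3.85% after it. Tapbp, the MHC class I loading protein tapasin, differed by 0.55 and 0.19. Of the NKG2D ligands, H60c was lower in KO by -0.40 and -0.70, and Raet1e passed the flag nowhere.

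Receptors of other families that NK cells also carry were counted alongside. Of 17 compared before re-stimulation, 7 were at least 2-fold higher in KO and 1 lower, and of 17 after it, 6 were higher and 2 lower. For this and the next lists, the shares over all genes were 5.26% higher and 2.82% lower before, and 5.17% and 3.85% after re-stimulation. Havcr2, encoding the inhibitory receptor TIM-3, was 152 in WT and 1290 in KO cells before re-stimulation and 5230 and 21961 after it. Lilrb4a was higher by 1.97 and 1.33, Cd200r1 by 1.84 and 1.42, and Cd244a, which encodes 2B4, was 3.18-fold and 2.82-fold higher. The transcription factors known to bear on killer receptor genes moved both ways, with 7 of 24 at least 2-fold higher and 2 lower before re-stimulation, and 4 higher and 4 lower after it. Id2 was higher in KO by 1.74 and 1.43 and Batf3 by 1.77 and 1.75, whereas Tox was lower by -1.99 before re-stimulation. Eomes, a T-box factor of NK and memory cells, gave 283 in WT and 860 in KO cells before re-stimulation and 1039 and 1096 after it, a difference of 1.61 that was -0.10 after 4 h. Among cytokines and cytokine receptors that act on these genes, 4 of 18 were at least 2-fold higher in KO before re-stimulation and none lower, and after it 3 of 19 were higher and 1, Il18r1 (-1.04), was lower. Il4, the Th2 cytokine, gave 752 in WT and 5239 in KO cells before and 10876 and 148258 after re-stimulation. Il10, not well above background in resting WT cells, was higher in KO by at least 4.65 before and by 5.85 after, Il12rb1 by 2.07 and 0.89, and Ifng by 1.75 and -0.09.

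Some markers of other cells differed between the genotype labels as well. Of 17 NK cell markers with a probe, 6 passed the flag nowhere, namely Ncr1, which encodes the NK receptor NKp46, Klra4, Klra9, Klri2, Styk1 and S1pr5. Of the 11 compared before re-stimulation, 7 were at least 2-fold higher in KO and 1 was lower, and of 10 after it, 6 were higher and 0 lower. The 1 lower before re-stimulation was Cd7, at 783 in WT and 326 in KO cells (-1.26), and its difference after re-stimulation was 0.36. Ncam1 (-0.13) and Itga2 (a bound of -0.36) were also below 0 before re-stimulation. Those higher included Gzma, at 3301 in WT and 31477 in KO cells before re-stimulation, Khdc1a, and Cma1, a chymase that mast cells also make. Tyrobp, Fcer1g and Cd244a, counted above, are also in this list. The summed signal of the list, each gene over the 75th percentile of its array, was 13.6 in WT and 86.5 in KO cells before re-stimulation and 166 and 254 after it. Gzma and Xcl1 carried most of it, and without them, a choice made after their values were seen, the sums were 5.98 and 13.9 before and 11.5 and 22.4 after re-stimulation. Of 9 mast cell and basophil markers with a probe, 6 were well above background on both KO arrays, while 2 were so in WT cells before and 1 after re-stimulation. The summed signal of that list was 0.46 in WT and 2.97 in KO cells before and 1.03 and 4.95 after re-stimulation, with Mcpt8 at 309 and 333 on the KO arrays. Of the markers with a probe, 5 of 8 for myeloid cells and 2 of 3 for γδ T cells passed the flag on at least 1 array. Blnk, an adaptor of B cells, was 12.8-fold higher in KO before re-stimulation, at 17.5 in WT and 222 in KO cells, and at least 12.8-fold higher after it. Of 3 B cell markers compared, the other 2 lay within 2-fold at both times. Adgre1, the macrophage marker F4/80, was higher in KO by 1.16 and 1.56. Of 3 myeloid markers compared after re-stimulation, 1 was past 2-fold higher in KO and 1 lower, with a median of -0.34. The lower 1 was Spi1, at 45.5 in WT cells and below the flag in KO cells. Cd163l1, a γδ T cell marker, was lower in KO by -1.22 and -1.03. Cd8a was well above background only on the re-stimulated KO array, at 63.0 on 1 probe. Its other probes passed the flag on no array, with 13.9 and 21.2 on that array. The part of such cells, or of the sex of the mice, in the Klrg1, Tyrobp and Fcer1g differences was not tested.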

How the data were processed

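Total RNA (500 ng) was labelled with Cy3 and hybridized to 4 arrays on 1 slide, scanned together. The authors deposited an intensity per spot from Agilent Feature Extraction 10.7.3.1 (background-subtracted, with a positive surrogate in place of low values), and the flags and the software's spot error beside it. The log2 values in a further deposited table matched the scaling below to within 0.01 for at least 41001 of 41173 probes per array. The paper's methods name no array processing.

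Here, spots flagged as uneven or outliers were left out, the remaining spots of each probe were averaged as log2 values, and each array was centred on the 75th percentile of its probes. Probes were named by transcript accession through a RefSeq gene table (GRCm38.p6, names and gene order only), which matched 27479 probes (66.7%). For genes with several probes the text uses the one with the highest mean log2 signal. Probes well above background on at least 1 of 2 arrays were compared, and genes were counted past 2-fold, a rule of size.

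All 10 receptors are named. From each other list the plan was to name up to 4 genes with the largest difference between genotypes before re-stimulation. Not all of these are named (Cpa3 and Eif2s3y are not). Some others, such as Cd69, Klrg2, Klrc3 and Il18r1, are named for values in another comparison. The members and lists were chosen with earlier results of these data known. Use of the software's spot error was decided after seeing the data. Alternatives were scaling to the median or to Cd3e or over detected probes, quantile normalization, normexp (offset 50) followed by quantile normalization, the authors' log2 table, the mean over probes, a stricter filter, no filter, and a 3-fold threshold. Scripts were checked on simulated arrays. Python 3.11.15, pandas 2.3.3, R 4.3.3 and limma 3.58.1 were used.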

Additional observations from a re-analysis of the deposited data

Results flagged for a closer look

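Differences with opposite signs were found for a pair of the receptors, each from single arrays and not tested. For Klrb1f the KO minus WT difference went from 0.79 before to -2.47 after re-stimulation, a change of -3.26 log2. The same change of -3.26 is its response in KO cells (-1.28) minus that in WT cells (1.98). For Klrb1c the KO minus WT difference went from 0.32 to -0.21, a change of -0.53 log2. By the software's spot error these differences carried errors of 0.20 and 0.21, so the second was no larger than its own. The second Klrb1c probe gave no genotype difference after re-stimulation. With normexp followed by quantile normalization the Klrb1f differences were 0.13 and -1.10, so the value before re-stimulation was then near 0, and as a mean over probes 0.46 and -1.19. The Klrb1f values rest on 1 of its 2 probes, as the other passed the detection flag on no array.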

How the results depend on the processing

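No paired analysis was possible because each condition had 1 array, so no replicate could be left out or matched either. Across the alternatives 264 values of single receptors were recomputed, and 188 of them stayed within the median SD between probes. Of 54 values of differences past 2-fold, none changed sign and 21 moved further. For Klrg1 the KO minus WT difference before re-stimulation was 3.32 with quantile normalization, 3.68 scaled to Cd3e and 1.63 with normexp followed by quantile normalization (called normexp with quantile from here), and after it 3.59 with quantile normalization and 1.96 under normexp with quantile. For Klrb1f the difference after re-stimulation was -2.64 with quantile normalization, -1.10 under normexp with quantile and -1.19 as a mean over probes. Its response in WT cells was 1.68 with median scaling, 1.81 with quantile normalization, 2.27 scaled to Cd3e, 0.79 under normexp with quantile and 1.21 as a mean over probes, and in KO cells -1.55, -1.54, -1.03, -0.44 and -0.45 in the same order. The Klrb1c response in KO cells was -1.38 with median scaling, -0.86 scaled to Cd3e and -0.86 under normexp with quantile. Without filter or floor, 2 members were at least 2-fold higher in KO after re-stimulation, 2 rose and 1 fell in WT cells, and 1 rose in KO cells. Scaled to Cd3e, 2 rose in WT cells, 1 rose in KO cells and 1 fell there. Under normexp with quantile 0 rose in WT and 0 fell in KO cells, as a mean over probes 1 fell in KO cells, and at 3-fold 0 fell there. Median scaling moved the median response of all genes by -0.29 in WT and -0.26 in KO cells, and scaling to Cd3e by 0.30 and 0.26, so small responses such as those of Klrd1 and that of Klra7 in WT cells have no settled sign. Dim signals limit Klrc1, Klre1, Klra8, Klrk1 and the WT values of Klrg1.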
